A study of Homo sapiens with 4 samples.

Results

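The set described here holds 6 genes: ZIC2, OTX2, SOX3, SIX6, SOX11 and SOX4, transcription factors that primed pluripotent cells share with the early neuroectoderm. They were taken by symbol from a table of 19775 genes, and all 6 were listed. Poly(A)-selected RNA was sequenced from wild-type H1 cells, a widely used line of human embryonic stem cells. The study has 4 samples: 2 received 1 µM XMD892 in E8 medium for 12 h, and 2 had E8 medium alone for 12 h. XMD892 inhibits ERK5, a mitogen-activated protein kinase, and E8 is a defined medium with insulin, FGF2 and TGFβ that both groups received. Only the 2 XMD892 libraries, replicate 1 and replicate 2, could be matched to columns of the table. The columns for cells without inhibitor name a culture time that differs from the labels of those samples and were not used here, so no effect of XMD892 is given for any gene below.

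Primed pluripotent cells, the state of human embryonic stem cells in FGF2 and TGFβ, use the same core factors as naive cells but add enhancers and factors of the epiblast that is about to form germ layers. OTX2 is a homeodomain factor that, in mouse cells, redirects OCT4 to such enhancers, and it later marks the anterior neural plate. ZIC2 is a zinc-finger factor of the epiblast and neural tube. SOX3 is, with SOX1 and SOX2, a SOXB1 protein of pluripotent cells and neural progenitors. SOX4 and SOX11 are SOXC activators of progenitor and neuronal genes, and SIX6 is a homeobox factor of the eye field, retina and pituitary.

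Promoter sequence from RefSeq (GRCh38.p14) is shown for the 4 genes whose levels differed most between the libraries, so that the genes of both directions can be set beside each other. Each window holds 250 bases before and 50 bases from the annotated start, on the strand of the gene. Capitals mark the CCAAT box (CCAAT), the GC box (GGGCGG) and a SOX core (ACAAT), on either strand. OTX2 has a pair of annotated starts, and both windows are given, first chr14:56810430-56810729 and then chr14:56805618-56805917, both on the minus strand. SOX3 is at chrX:140505020-140505319 (minus), SIX6 at chr14:60508896-60509195 (plus) and SOX4 at chr6:21593501-21593800 (plus).
OTX2, upstream start: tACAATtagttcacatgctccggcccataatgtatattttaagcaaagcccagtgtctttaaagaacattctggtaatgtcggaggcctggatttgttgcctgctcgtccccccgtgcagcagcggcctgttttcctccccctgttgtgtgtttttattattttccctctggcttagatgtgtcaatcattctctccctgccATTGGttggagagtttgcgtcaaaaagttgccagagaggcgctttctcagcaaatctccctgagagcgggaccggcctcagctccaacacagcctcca
OTX2, inner start: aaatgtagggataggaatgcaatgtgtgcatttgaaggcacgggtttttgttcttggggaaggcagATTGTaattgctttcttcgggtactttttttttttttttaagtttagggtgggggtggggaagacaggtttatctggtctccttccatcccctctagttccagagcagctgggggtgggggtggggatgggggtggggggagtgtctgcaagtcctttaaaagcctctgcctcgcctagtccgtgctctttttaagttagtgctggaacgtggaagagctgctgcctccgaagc
SOX3: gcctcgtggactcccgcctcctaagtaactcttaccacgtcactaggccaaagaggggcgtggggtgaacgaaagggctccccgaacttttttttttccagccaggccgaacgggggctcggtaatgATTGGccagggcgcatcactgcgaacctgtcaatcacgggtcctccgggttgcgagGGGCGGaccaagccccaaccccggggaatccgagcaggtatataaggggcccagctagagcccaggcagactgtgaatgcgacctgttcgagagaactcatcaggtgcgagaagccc
SIX6: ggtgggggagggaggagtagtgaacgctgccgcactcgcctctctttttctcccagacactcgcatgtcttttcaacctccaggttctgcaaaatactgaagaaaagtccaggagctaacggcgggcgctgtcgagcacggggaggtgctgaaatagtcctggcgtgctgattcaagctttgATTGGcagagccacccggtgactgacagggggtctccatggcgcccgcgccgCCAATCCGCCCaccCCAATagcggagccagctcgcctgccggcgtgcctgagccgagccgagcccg
SOX4: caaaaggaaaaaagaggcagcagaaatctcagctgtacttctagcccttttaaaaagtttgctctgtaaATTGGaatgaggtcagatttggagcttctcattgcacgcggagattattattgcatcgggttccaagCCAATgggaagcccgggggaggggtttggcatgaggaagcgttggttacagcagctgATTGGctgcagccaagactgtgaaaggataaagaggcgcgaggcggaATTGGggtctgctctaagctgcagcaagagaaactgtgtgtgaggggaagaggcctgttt

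Entries were found for 5 of the 6 members, with 6 windows in all. A CCAAT box was present in 4 of these windows, those of SOX3, SIX6, SOX4 and the upstream start of OTX2, against 34.6% of all 35116 promoter windows of that length. SOX4 held 4 copies and SIX6 held 3, and the GC box of SIX6 directly follows one of its CCAAT boxes without sharing a base. Both OTX2 windows held the SOX core, which 27.4% of all windows hold. The GC box was found for ZIC2, SIX6 and SOX3, against 45.0% of all windows. No window held the letters TATAAA (11.5% of all windows), the OTX core TAATCC (6.36%) or the octamer ATGCAAAT (1.77%). A match is a string of letters and not a shown binding site.

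The windows differed in CpG content. ZIC2 had the highest ratio of observed to expected CpG, 0.887, at 75.0% GC, and SIX6 and SOX3 followed at 0.789 and 0.733. The upstream and inner OTX2 windows had 0.493 and 0.353, and SOX4 had 0.485, below the median of 0.579 over all windows. For SOX4 the RefSeq start lies 983 bases inside the GENCODE gene, so its window covers transcribed sequence in that annotation. For SIX6 the start lies 195 bases inside, so most of its window, with its CCAAT and GC boxes, lies past the gene start. The starts of SOX3 and ZIC2 lie 47 and 12 bases inside. For OTX2 the upstream start is the GENCODE gene start itself and the inner one lies 4812 bases within the gene.

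The genes share few structural features beyond their role. In GENCODE release 29, SOX3, SOX4 and SOX11 are single-exon genes with 1 transcript each, with exon lengths of 2132, 5852 and 8719 bases. SIX6 has 2 exons and 1 transcript, ZIC2 has up to 3 exons in 5 transcripts, and OTX2 has up to 6 exons in 7 transcripts. On GRCh38, the assembly that hg38 names, ZIC2 lies on chromosome 13 at 99981772 to 99986773 (plus strand) and SOX11 on chromosome 2 at 5692667 to 5701385 (plus). SOX4 lies on chromosome 6 at 21592768 to 21598619 (plus) and SOX3 on chromosome X at 140502985 to 140505116 (minus). OTX2 at 56799905 to 56810479 (minus) and SIX6 at 60508951 to 60512850 (plus) are both on chromosome 14, 3.70 Mb apart.

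The libraries held 18528689 reads on listed genes in replicate 1 and 20217648 in replicate 2. RPKM is used for levels, in which reads are scaled by depth (all recovered reads of the library) and by merged exon length, which allows genes of different length to be compared. As a check of the cell type, all 7 pluripotent cell markers reached 1 RPKM in both libraries, with summed levels of 1973 and 2321 RPKM. All 8 neural markers stayed under that level in at least 1 library or were not listed: 5 were listed, PAX6, NEUROG2 and ELAVL4 were not, and the summed level was 4.47 and 1.97 RPKM. The mesendoderm list had 5 of 8 genes listed (1.42 and 3.98 RPKM in sum, with T, which has no length here, left out of the sum) and the trophoblast and amnion list 4 of 8 (1.48 and 1.81 RPKM). Of 6 neural crest genes 4 were listed, with sums of 24.2 and 24.96 RPKM. FOXD3, also among the primed pluripotency genes examined below, gave 19.8 and 21.2 RPKM of these sums. SOX9 stood at 4.16 and 3.61 RPKM, while SNAI2 had 9 and 8 reads and PAX3 had 1 and 3. Of 8 fibroblast genes 4 were listed, with sums of 110 and 74.3 RPKM, and COL3A1, DCN, LUM and POSTN were not listed. Whether both libraries derive from distinct cultures is not in the labels, and their spread may be only technical.

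All members but OTX2 were well expressed in XMD892-treated cells. At least 1 RPKM was reached in both libraries by 5 members, and the median of the 6 mean levels was 27.0 RPKM, against 2.31 RPKM over the 19283 genes with a length. Most genes pass 1 RPKM in each library. KLF4, at 1.00 RPKM in replicate 1, was above 36.4% of the genes with a length. COL1A1, at 0.987 RPKM in replicate 2, was above 37.9%. In bulk RNA, more cells that express a gene and more RNA per cell cannot be told apart.

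ZIC2 had the highest level of the set. It stood at 60.7 RPKM in replicate 1 and 54.7 RPKM in replicate 2, a mean of 57.7 ± 4.24 RPKM (SD, n = 2), on 3720 and 3658 reads. That level was above 96.6% of all genes with a length. The libraries were close, with normalized counts (reads divided by the authors' size factor) of 3993 and 3860.

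SOX4 followed at 51.3 ± 14.02 RPKM (SD, n = 2), with 41.4 RPKM in replicate 1 and 61.3 RPKM in replicate 2. Its reads numbered 4492 and 7247, the most of any member in replicate 2. The ranges of ZIC2 and SOX4 overlapped, so their order is not beyond the spread of the libraries. SOX11, the other SOXC gene of the set, stood at 29.2 and 25.1 RPKM, with a mean of 27.2 ± 2.89 RPKM. In reads SOX11 had 4718 and 4427, more than SOX4 in replicate 1 and fewer in replicate 2. Per length SOX4 was the higher of the pair in both libraries, and its lower value lay above the higher value of SOX11.

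SIX6 stood at 23.4 RPKM in replicate 1 and 30.4 RPKM in replicate 2, a mean of 26.9 ± 4.94 RPKM (SD, n = 2), on 1210 and 1714 reads. SOX3 stood at 25.3 and 16.4 RPKM, a mean of 20.9 ± 6.25 RPKM, on 999 and 709 reads. The values of SOX11, SIX6 and SOX3 overlapped from each gene to the next. Within each library SOX11 was above SOX3. SIX6 was the lowest of these 3 in replicate 1 and the highest in replicate 2, so its place among them is not fixed.

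OTX2 was far below the others. It had 128 reads and 2.11 RPKM in replicate 1, against 34 reads and 0.514 RPKM in replicate 2, a mean of 1.31 ± 1.13 RPKM (SD, n = 2). The lower SOX3 value, 16.4 RPKM, was well above the higher OTX2 value. In replicate 1 OTX2 was above 47.9% of the genes with a length, and in replicate 2 above 29.2%.

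**Figure D1:**
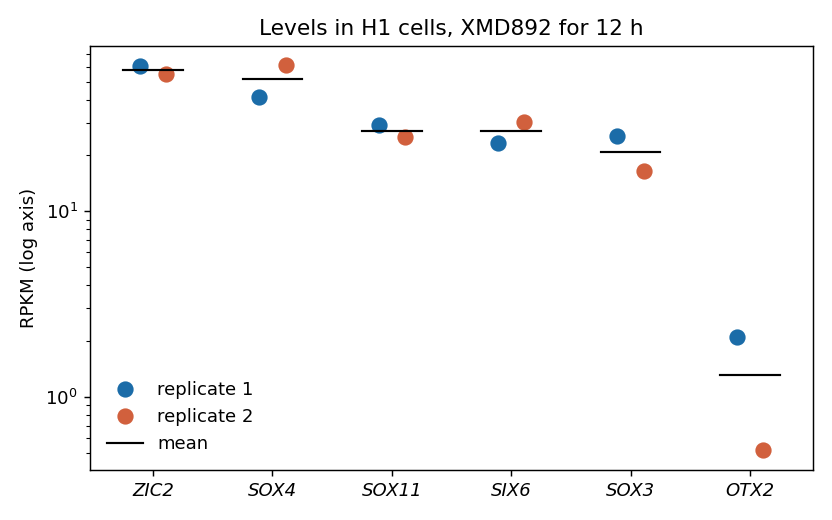
Level of each gene in RPKM (log axis) in the 2 libraries of XMD892-treated H1 cells; points are single libraries and lines their means. ZIC2, SOX4, SOX11, SIX6 and SOX3 lie between 16.4 and 61.3 RPKM, and OTX2 lies at 2.11 and 0.514 RPKM.

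The libraries differed unevenly across the 6 genes. Each difference below is replicate 2 minus replicate 1 on the scale log2(normalized count + 1), and the interval is an exact 95% binomial (Clopper-Pearson) interval on the reads, which covers counting error only. A single library stands on each side, so there is no replicate check and no test. Replicate 1 had the higher value for 4 of the 6 genes and replicate 2 for 2, with a median difference of -0.083, against 0.023 over the 16148 genes whose normalized counts averaged 10 or more. A gap of at least 2-fold was present for 1 of the 6, OTX2, against 10.9% of all those genes in either direction and 6.14% toward replicate 1. Counting intervals excluded equal levels for 5 of the 6, ZIC2 being the exception, against 58.1% of all genes.

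For OTX2 the normalized count was 137 in replicate 1 and 35.9 in replicate 2. The difference was -1.91 (interval -2.53 to -1.38), a 3.75-fold higher level in replicate 1. That gap was larger than for 98.1% of the genes compared. Set against SOX2 in the same library, which removes the scale between libraries, OTX2 made up 2.96% of the OTX2 and SOX2 reads in replicate 1 (interval 2.47% to 3.51%) and 0.673% in replicate 2 (0.467% to 0.939%).

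SOX3 differed in the same direction by less, with normalized counts of 1072 and 748 and a difference of -0.52 (interval -0.66 to -0.38). SOX3 took 19.1% of the reads of SOX1, SOX2 and SOX3 together in replicate 1 (interval 18.0% to 20.2%) and 12.3% in replicate 2 (11.5% to 13.2%). SOX2, the abundant member of that subfamily, was slightly higher in replicate 2, at 98.8 RPKM against 90.2 RPKM in replicate 1.

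SOX4 and SIX6 were the 2 members higher in replicate 2. SOX4 had normalized counts of 4822 in replicate 1 and 7647 in replicate 2, a difference of 0.67 (interval 0.61 to 0.72). SIX6 had 1299 and 1809, a difference of 0.48 (interval 0.37 to 0.59). These gaps were larger than for 77.8% and 65.6% of all genes compared.

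ZIC2 and SOX11 were the most even between the libraries. The difference of ZIC2 was -0.049 (interval -0.12 to 0.017), a smaller gap than that of most genes, since only 8.90% of them had a smaller one. SOX11 differed by -0.12 (interval -0.18 to -0.057), from normalized counts of 5065 and 4672. The SOXC pair therefore did not keep a fixed ratio: SOX4 gave 48.8% of their joint reads in replicate 1 (interval 47.7% to 49.8%) and 62.1% in replicate 2 (61.2% to 63.0%). Per length, SOX4 stood at 1.42 times SOX11 in replicate 1 and 2.44 times in replicate 2.

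**Figure D2:**
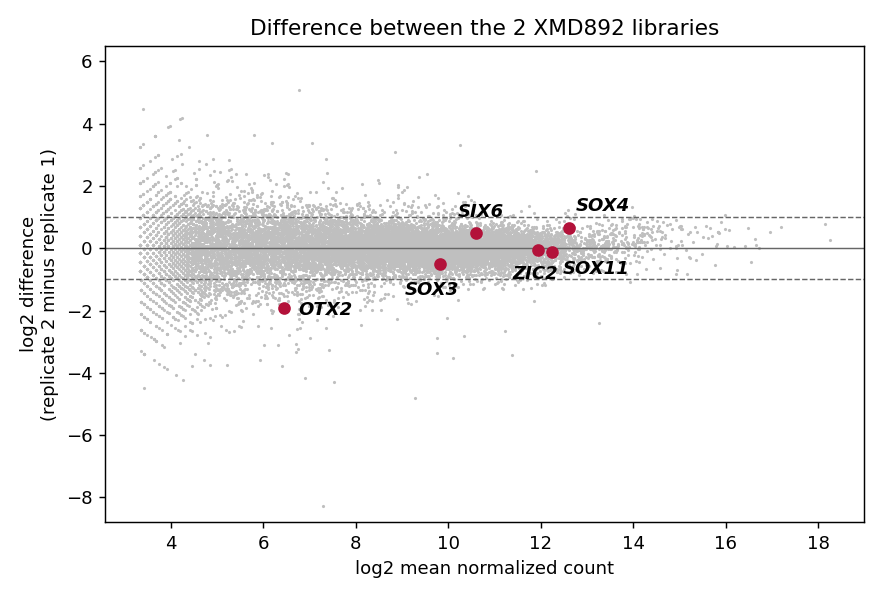
Difference between the XMD892 libraries (log2, replicate 2 minus replicate 1) against the log2 mean normalized count, for genes with a mean of at least 10 (grey) and the 6 members (red); dashed lines mark a 2-fold gap. OTX2 lies at -1.91, outside the lines, and the other 5 lie between -0.52 and 0.67.

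**Figure D3:**
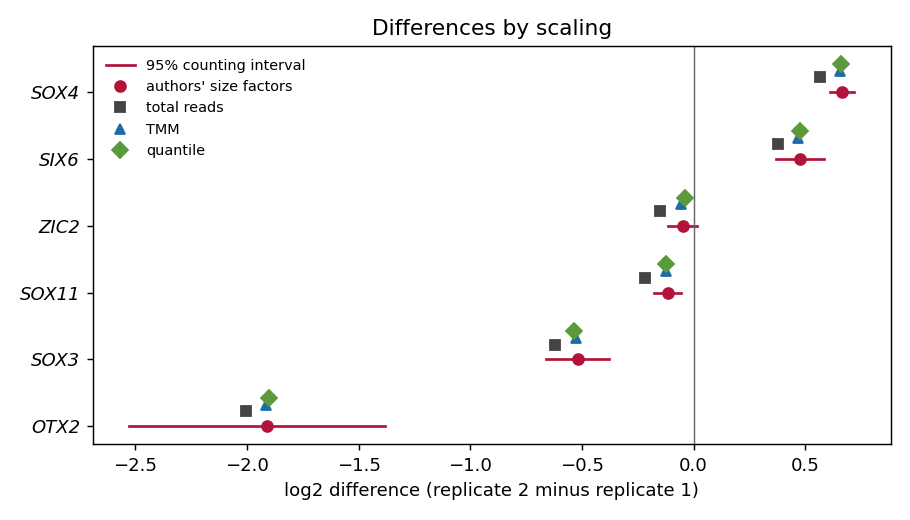
Difference of each gene between the XMD892 libraries (log2) under 4 scales, with the 95% counting interval of the value on the authors' size factors. Every gene keeps its sign under the 4 scales, and total reads move each value toward replicate 1.

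Some markers of other cell types also differed between the libraries. Among the neural markers, TUBB3 (neuronal tubulin) stood at 2.02 and 0.782 RPKM in replicates 1 and 2. MAP2 (a neuronal microtubule protein) stood at 1.34 and 0.334 RPKM. Both had the direction of OTX2 and SOX3. The differences of SOX1 (-0.41) and DCX (-0.25) had counting intervals that included equal levels. So did that of ELAVL3, which was 0.37 on 12 and 16 reads. Fibroblast marker COL1A1 stood at 7.85 and 0.987 RPKM and TAGLN at 62.2 and 5.34 RPKM, while THY1, which pluripotent cells also carry, stood at 33.7 and 64.2 RPKM. Other markers ran in the direction of SOX4 and SIX6. The mesendoderm markers MIXL1 and GSC stood at 0.825 and 0.470 RPKM in replicate 1 and at 2.54 and 1.29 RPKM in replicate 2. Their differences were 1.69 and 1.48, with GSC on 11 and 33 reads. T and EOMES were close between the libraries, at 8 and 9 and at 7 and 8 reads, and GATA4 had 2 and 4. The trophoblast and amnion marker GATA2 stood at 0.315 and 0.721 RPKM on 26 and 65 reads, a difference of 1.27. KRT7, the highest of that list, was even on 78 and 79 reads. GATA3 had 6 and 6 reads and TFAP2A had 6 and 8. Whether cells of these types were present, and any part they had in the values of OTX2, SOX3, SOX4 and SIX6, was not tested.

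Several members stood above the related genes they were compared with. ZIC2 was higher than ZIC1, ZIC4 and ZIC5 in both libraries and gave 55.0% of the reads of these 4 genes in replicate 1 (interval 53.8% to 56.2%) and 53.6% in replicate 2 (52.4% to 54.8%). ZIC5 and ZIC1 followed at 13.9 ± 0.356 and 13.6 ± 1.01 RPKM (SD, n = 2), and ZIC4 was at 0.414 ± 0.0383 RPKM. Of these 4 genes 3 were higher in replicate 1, none by 2-fold, and their median difference was -0.050.

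SIX6 was higher than SIX2, SIX3, SIX4 and SIX5 in both libraries. It gave 43.7% of the reads of these 5 genes in replicate 1 (interval 41.9% to 45.6%) and 56.9% in replicate 2 (55.1% to 58.7%). SIX3, a factor of forebrain and eye, stood at 9.09 and 5.61 RPKM, and SIX4 at 7.62 and 5.78 RPKM. Thus SIX3 and SIX4 differed from SIX6 in the direction between the libraries, with differences of -0.59 and -0.30 against 0.48. SIX5 and SIX2 averaged 2.70 and 0.625 RPKM.

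The table held 17 of 19 SOX genes (not SOX10 or SOX17), and 11 of them had at least 1 RPKM in each library. SOX2 led at 94.5 ± 6.06 RPKM, then SOX4 and SOX11 in both libraries, and SOX3 was the sixth by mean. Between SOX11 and SOX3 lay SOX13 at 24.2 ± 4.67 RPKM and SOX12, the third SOXC gene, at 22.4 ± 1.03 RPKM. SOX3, SOX4 and SOX11 together gave 46.0% of SOX reads in replicate 1 (interval 45.4% to 46.7%) and 50.5% in replicate 2 (49.8% to 51.1%). SOX15, SOX21, SOX14, SOX8 and SOX9 averaged 13.4, 8.78, 7.26, 4.96 and 3.88 RPKM. The neural gene SOX1 stood at 0.677 ± 0.170 RPKM and SOX18, an endothelial factor, at 0.680 ± 0.0615 RPKM. SOX7, SOX5, SOX30 and SOX6 averaged 0.258, 0.137, 0.0959 and 0.0197 RPKM. Of the 15 family genes compared, 9 were higher in replicate 1, none by 2-fold, and the median difference was -0.10.

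Related head homeobox genes were low or not listed. OTX1 and CRX were not listed, and the streak gene GSC stood at 0.470 RPKM in replicate 1 and 1.29 RPKM in replicate 2 on 11 and 33 reads, the opposite direction to OTX2.

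**Figure D4:**
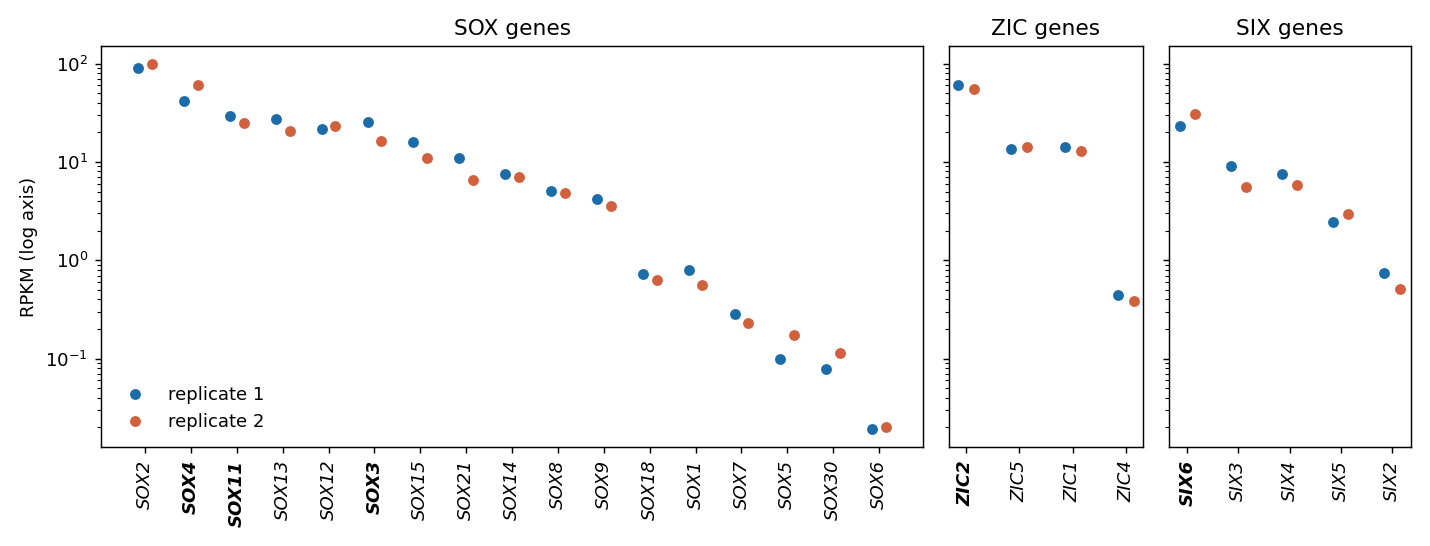
Levels in RPKM (log axis) of the listed SOX genes, of ZIC1, ZIC2, ZIC4 and ZIC5 and of SIX2 to SIX6 in the 2 XMD892 libraries, each panel ordered by the mean, with the members in bold. ZIC2 and SIX6 are the highest of their panels in both libraries, and SOX4 and SOX11 come after SOX2.

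Of the listed genes examined within 150 kb of a member, all but TMEM260 near OTX2 had a lower mean level than the member. ZIC5, which lies 9.86 kb from ZIC2 on the opposite strand, stood at 13.6 and 14.1 RPKM. Its difference was 0.15 (interval 0.039 to 0.27), beside -0.049 for ZIC2, whose interval included equal levels. C14orf39 overlaps SIX6 on the opposite strand and had 40 and 85 reads, against the 1210 and 1714 of SIX6. Its difference was 1.05 (interval 0.50 to 1.64), in the direction of SIX6. AL049874.3, 2.27 kb from SIX6, differed by 1.09 (interval 0.67 to 1.53). The pseudogenes RBM8B and SALL4P7 went the other way, on 8 and 1 and on 11 and 3 reads. The strand setting of the counting is not given in the sources used here, so reads of overlapping genes cannot be told apart. For SOX11, a 3-prime overlapping noncoding RNA, AC108025.2, had 23 and 16 reads. SOX4 overlaps an antisense gene, AL512380.2, which was not listed, and CASC15, 66.2 kb away, stood at 0.723 and 0.596 RPKM. TMEM260, 149 kb from OTX2, stood at 1.97 and 2.28 RPKM, and no listed gene lay within the window around SOX3.

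Other genes of the primed state had a higher median level than the 6 members. Of the 24 primed pluripotency genes examined 23 were listed (not FGF5), all 23 at 1 RPKM or more in each library, and their median was 61.4 RPKM. POU5F1, which encodes OCT4, stood at 734 and 1430 RPKM, the RNA-binding protein gene LIN28A at 536 and 402 RPKM, and the surface glycoprotein gene CD24 at 460 and 432 RPKM. The lowest were POU3F1, a POU factor of the epiblast and neural lineage, at 7.60 ± 0.300 RPKM, and FGF2 at 6.65 ± 1.90 RPKM. OTX2 lay below all of them. Replicate 1 was the higher for 12 of them and replicate 2 for 11, in 3 cases by at least 2-fold; the median difference was -0.042.

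Naive genes were low. Of 14 naive pluripotency genes 11 were listed, only 3 of them at 1 RPKM or more in each library, and their median level was 0.512 RPKM. PRDM14 led, which human primed cells also express, at 36.0 and 17.6 RPKM. NR5A2 and TFCP2L1 followed at 7.39 ± 0.167 and 1.41 ± 0.196 RPKM, and ESRRB and TBX3 were the lowest at 0.217 and 0.106 RPKM. Among the 9 compared, 6 were higher in replicate 1, with a median difference of -0.057. Only 1, FGF4, had a gap of at least 2-fold, toward replicate 2 on 21 and 44 reads.

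The early neuroectoderm and eye field list held 24 genes, of which 20 were in the table and 11 had at least 1 RPKM in each library. PAX6, FEZF2, EN2 and POU3F2 were not listed, and the median was 1.55 RPKM. NES (nestin) was highest at 170 and 89.7 RPKM, a difference of -0.82 with the sign of SOX3. GBX2 stood at 28.6 and 36.2 RPKM and SP8 at 23.7 and 31.3 RPKM, with differences of 0.44 and 0.50, the sign of SIX6. RAX, the eye field gene, and MEIS2 were the lowest, with 2 and 4 reads for RAX and 4 and 4 for MEIS2. Beside SIX6 at a mean of 26.9 RPKM, the eye field gene SIX3 averaged 7.35 RPKM, while LHX2 and RAX averaged 0.0779 and 0.0410 RPKM. In this list 10 of 16 compared genes were higher in replicate 2, with a median difference of 0.10. A gap of at least 2-fold was present for 2 genes toward replicate 1 and 2 toward replicate 2. The largest in each direction were LHX5 at -1.52 (213 and 75 reads) and POU3F4 at 3.63 (7 and 99 reads).

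Genes linked to SOXC factors had 8 of 9 members listed (not NEUROG2), and 5 reached 1 RPKM in both libraries. STMN1 (stathmin) stood at 70.5 and 110 RPKM and MARCKS at 54.9 and 85.2 RPKM, with differences of 0.74 and 0.73 beside 0.67 for SOX4. TUBB3 had the opposite sign and the largest difference of the list, -1.26, its only gap of at least 2-fold. TEAD2, a TEAD factor of progenitors, was even at 54.2 ± 1.99 RPKM. PROX1 and DCX (doublecortin) were the lowest at 0.225 and 0.155 RPKM. The list's median difference was 0.073, with 5 of 8 higher in replicate 2. In the list of partners and signals, all 15 genes were present, 14 at 1 RPKM or more in each library, with a median of 5.76 RPKM and a median difference of 0.032. That median hides opposite gaps of at least 2-fold, for 2 genes toward replicate 1 and 2 toward replicate 2, against 10.9% of all genes compared. The largest were NOTCH1 at -1.13 and DLL3 at 1.93. After POU5F1 and SOX2 the highest gene of this list was the receptor FGFR1 at 34.8 ± 1.84 RPKM. Per length the lowest were SMAD2 at 1.99 ± 0.291 RPKM and FGF8 at 0.846 RPKM. SMAD2 had 1482 and 1315 reads over a merged exon length of 36366 bases, so it was low per length and not in reads.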

How the data were processed

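The authors deposited a normalized signal, in which the values of a library are gene counts over its size factor. In each column used, 100% of values were multiples of a common step to within 0.01 reads, and dividing by the step gave back reads, with size factors of 0.932 and 0.948. Trimmomatic 0.36, STAR, featureCounts 1.5.3, DESeq2 1.26.0 and hg38 are named, without roles, per the submitters' processing notes; no source used here gives the annotation or any filter on listed genes. A column was matched to a sample if it named the same treatment, hours and replicate. Of the 9 value columns 2 were used, and 7 matched no sample here, the untreated ones among them. The planned limma test of XMD892 against E8 was therefore not run.

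RPKM used merged exon lengths of GENCODE 29; 492 of 19775 symbols had no single gene ID and have no RPKM. Merged exons understate genes with long rare isoforms. Differences use log2(value + 1), which understates low genes, over genes with a mean of at least 10. Analysis used Python 3.11.15, scipy 1.17.1 and edgeR 4.0.16 (TMM factors only). Recovery and intervals were tested on simulated reads with counting error alone. That setting cannot show how the intervals behave in these libraries. Intervals rest on the reads of 1 library on each side, so they cover counting error only. Reads carry no molecular identifiers, so copies of a molecule count as separate reads and the intervals may be too narrow. The members and lists were chosen with earlier results of these data known. Named are the members, the listed SOX, ZIC, OTX-related and SIX2 to SIX6 genes, and the 3 highest and 2 lowest per length of each other list. Marker genes, gene neighbours within 150 kb and a few further genes were chosen after values were seen. Some items of the lists are not reported here.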

Additional observations from a re-analysis of the deposited data

How the results depend on the processing

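No difference of a member changed sign under the other pseudocounts (0.5 and 5), total reads, TMM or quantile normalization. With total reads as the scale, under which the median of the 16148 genes compared was -0.077 in place of 0.023, the differences were -0.15 for ZIC2, -0.22 for SOX11 and 0.56 for SOX4, outside the counting intervals of the values on the authors' size factors; the other 27 recomputed differences lay inside. With the longest transcript as length ZIC2 stood at 64.0 RPKM, beyond its SD, and OTX2 at 1.43 RPKM, within it; for SOX3, SIX6, SOX11 and SOX4, with 1 transcript each, that length is the same. On the authors' size factors as scale the levels of all 6 genes lay within 1 SD. Leaving out a library gives the level of the other one, which for OTX2 is 2.11 RPKM without replicate 2 and 0.514 RPKM without replicate 1. The count of genes with a gap of at least 2-fold was 1761; it was 3350 (16.9%) without the minimum and 711 (5.64%) with a minimum of 50, where more and fewer low genes enter. No paired analysis was possible because no column of the table matched the samples in E8 alone. The tests of XMD892 against E8, with their alternatives, were not run for the same reason. Depth limits OTX2 most, on 128 and 34 reads, and 2 libraries of 1 group show no effect of the compound.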
